A study of Mus musculus with 19 samples.

Results

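*Runx1*, *Tal1*, *Lyl1*, *Lmo2*, *Erg*, *Fli1* and *Ldb1* are the regulators that are known to bind together with *Gata2* at the enhancers of blood stem cells. They were taken by name, as a list of 7 genes of the 54352 genes counted, and all 7 were found in the count files and passed the filter on low counts. Their RNA was followed in 19 libraries from CMPs (common myeloid progenitors) and LSK cells (Lineage-, Sca1+, cKit+ cells, which hold the stem cells and the multipotent progenitors, and which the labels call KLS). The animals carried an inducible shRNA against the lncRNA *Spehd*, which is transcribed next to *Gata2*, or against the *Renilla* luciferase, which mouse cells do not have.

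Of the 9 CMP libraries, 4 carried *Renilla* shRNA, 3 carried sh10 and 2 carried sh20, where sh10 and sh20 target *Spehd*. The 10 LSK libraries comprised 4, 3 and 3 in the same order. The donor cells were HSCs (hematopoietic stem cells) of C57BL6 mice, transduced with a vector in which doxycycline switches on the shRNA together with the zsGreen reporter. The recipients were cKit-w41 mice carrying CD45.1 that were irradiated sublethally, so blood cells of the host remained, and zsGreen+ cells were sorted. All animals, controls included, carried the vector, were left for 10 weeks to reconstitute and received doxycycline in food for 6 days before the sort. The labels do not say whether 1 library is 1 animal, so p-values measure the spread between libraries, which may be technical.

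*Tal1* and *Lyl1* are closely related basic helix-loop-helix proteins that bind the E-box of DNA after pairing with an E-protein. *Lmo2* is a LIM-only adaptor that does not touch DNA and joins *Tal1* or *Lyl1* to a GATA factor, and *Ldb1* binds *Lmo2* and links enhancers to promoters through its own dimerization. *Erg* and *Fli1* are ETS factors that share their DNA motif, and *Runx1* binds its own motif with its partner *Cbfb*. Stem and progenitor cells of the bone marrow use these proteins together with *Gata2*, whereas erythroid cells use *Tal1*, *Lmo2* and *Ldb1* with *Gata1*.

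The total of reads counted on genes was between 3647318 and 5965155, and its median was 4918631. Total counts separated the shRNA groups of CMPs, with 3857980 to 4314959 counts for *Renilla*, 4918631 to 5228700 for sh10 and 5680969 to 5965155 for sh20, whereas those of LSK cells overlapped. *Ly6a*, which encodes Sca1, was between 1.58 and 9.81 CPM (counts scaled to a common library size with TMM) in CMP libraries and between 39.9 and 81.4 CPM in LSK libraries. The summed level of 8 erythroid markers was 1453 to 1752 CPM in CMPs and 425 to 606 CPM in LSK cells, while that of 7 markers of myeloid progenitors was lower in CMPs, at 467 to 842 CPM against 942 to 1202 CPM. That of 7 mast cell and basophil markers was lower in CMPs too, at 118 to 210 CPM against 373 to 852 CPM, and the part of these markers in the differences between the cell types was not tested. The LSK sh10 library B stood apart, with a summed level of 1424 CPM for 10 stem cell markers where the other LSK libraries had 2121 to 2463 CPM. No gene counted is named *Spehd*, so its knockdown was not checked here.

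The 7 genes differed widely in level. Per kilobase of exon in the *Renilla* control libraries, *Lmo2* was the highest, with 158 ± 3.19 CPM per kilobase (SD, n = 4) in CMPs and 165 ± 21.5 in LSK cells. *Fli1* followed with 59.3 ± 11.8 CPM per kilobase in CMPs and 65.5 ± 6.56 in LSK cells, and *Ldb1* with 47.0 ± 0.856 and 47.2 ± 5.33. On this length, all exons of a gene merged, the libraries of *Fli1* and *Ldb1* overlapped in CMPs and not in LSK cells. Below them, the order changed with the cell type. In CMPs, *Tal1* (19.5 ± 0.642 CPM per kilobase) stood above *Lyl1* (13.7 ± 1.83), *Runx1* (12.3 ± 1.69) and *Erg* (2.96 ± 0.613). In LSK cells, *Lyl1* (25.7 ± 6.11) stood above *Runx1* (15 ± 0.857), *Erg* (14.8 ± 3.73) and *Tal1* (12.9 ± 1.2). The libraries of *Lyl1* and *Runx1* overlapped in CMPs, and those of *Erg* overlapped with *Lyl1*, with *Runx1* and with *Tal1* in LSK cells. The places of *Runx1*, *Fli1* and *Ldb1* depended on the length used. With the longest transcript in place of all exons, *Runx1* had 25.3 CPM per kilobase in CMPs and 30.8 in LSK cells. On that length *Ldb1* (69.1 and 69.4) had a higher mean than *Fli1* (62.3 and 68.8), with libraries that overlapped in both cell types.

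**Figure D1:**
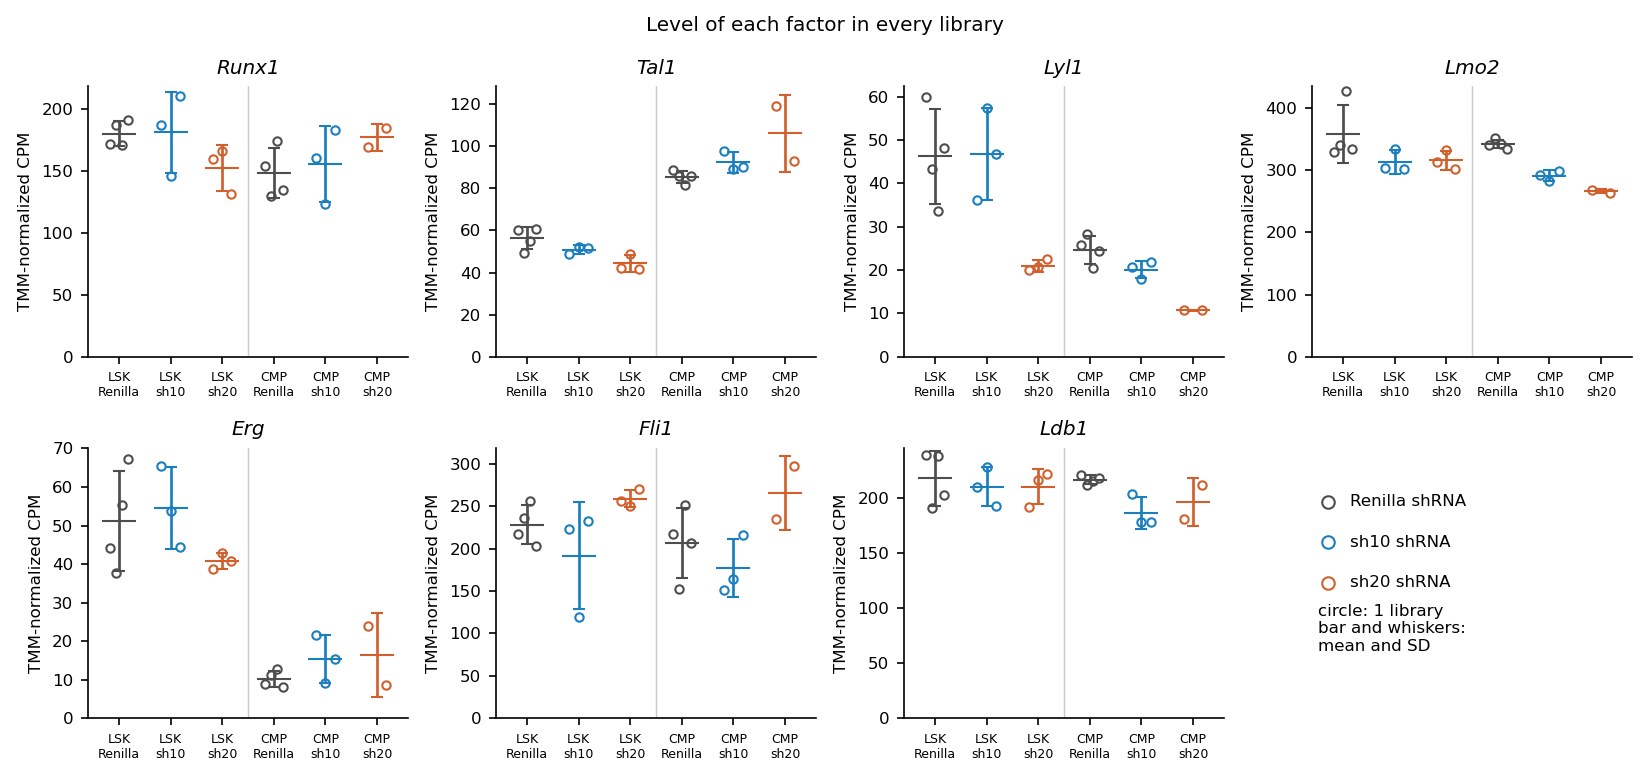
Level of each of the 7 genes in every library, in TMM-normalized CPM on linear axes from 0. Circles are libraries and bars with whiskers are the mean and SD of each cell type and shRNA. *Tal1* is higher in all CMP than in all LSK libraries, *Erg* is lower in all CMP libraries, and *Lyl1* is lowest with sh20 in each cell type.

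The first question was how the partners differed between the 2 sorted populations, without knockdown of *Spehd*. In the *Renilla* control libraries, CMPs had more *Tal1* and less *Lyl1* and *Erg* than LSK cells, and *Runx1*, *Lmo2*, *Fli1* and *Ldb1* did not pass the test. Thus 3 of the 7 genes were called by edgeR's quasi-likelihood test at an adjusted p under 0.05, 1 higher and 2 lower, in a comparison that called 19.8% of the 15066 genes tested. The median log2 fold change of the 7 was -0.14, and that of all genes tested was -0.02. In these bulk libraries, fewer cells with a transcript and less of it per cell cannot be told apart.

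*Tal1* (ENSMUSG00000028717.12, GRCm38 chr4:115056426-115071755, plus strand) is required for blood formation and drives the erythroid and megakaryocyte programs. The *Renilla* libraries A, B, C and D had 88.5, 85.8, 81.7 and 85.9 CPM in CMPs and 60.2, 49.4, 55.1 and 60.7 CPM in LSK cells. The groups did not overlap, and every CMP library lay above every LSK library. The log2 fold change was 0.60 (SE 0.11, edgeR adjusted p = 0.00123), a 1.52-fold higher level in CMPs.

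*Lyl1* (ENSMUSG00000034041.4, GRCm38 chr8:84701457-84704715, plus strand) can stand in for *Tal1* in adult stem cells and is needed for lymphoid progenitors. Its 4 CMP *Renilla* libraries had 25.8, 28.3, 20.4 and 24.3 CPM, and the 4 LSK *Renilla* libraries had 60.0, 43.4, 33.6 and 48.2 CPM. The groups again did not overlap, with the order reversed from that of *Tal1*. The log2 fold change was -0.91 (SE 0.19, edgeR adjusted p = 0.0032), so that LSK cells held 1.88-fold more.

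*Erg* (ENSMUSG00000040732.20, GRCm38 chr16:95359169-95586593, minus strand) is an ETS factor needed for the maintenance of stem cells. It had 8.95, 11.2, 12.8 and 8.10 CPM in the CMP *Renilla* libraries and 44.2, 37.8, 55.4 and 67.2 CPM in the LSK *Renilla* libraries. This was the largest difference among the 7 genes, a log2 fold change of -2.31 (SE 0.31, edgeR adjusted p = 8.95e-05) that corresponds to 4.96-fold more in LSK cells. Its close relative *Fli1* (ENSMUSG00000016087.13, GRCm38 chr9:32422204-32542861, minus strand), which acts in stem cells and megakaryocytes, had 207 ± 41.2 CPM (SD, n = 4) in CMPs and 228 ± 22.9 CPM in LSK cells, ranges that overlapped. The *Fli1* log2 fold change was -0.14 with a 95% interval from -0.53 to 0.25 (edgeR adjusted p = 0.655).

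*Runx1* (ENSMUSG00000022952.17, GRCm38 chr16:92601466-92826149, minus strand), needed for the emergence of stem cells, had 148 ± 20.3 CPM (SD, n = 4) in CMPs and 180 ± 10.3 CPM in LSK cells. Its log2 fold change was -0.28 with a 95% interval from -0.57 to 0.00 (edgeR adjusted p = 0.159), and it was called, at -0.30 (edgeR adjusted p = 0.0374), when only the 8 *Renilla* libraries were fitted. Its adjusted p ran from 0.0374 to 0.350 over all alternatives. The 2 adaptors were close to equal. *Lmo2* (ENSMUSG00000032698.15, GRCm38 chr2:103957986-103981878, plus strand) had 342 ± 6.90 CPM in CMPs and 358 ± 46.6 CPM in LSK cells, a log2 fold change of -0.06 with an interval from -0.22 to 0.10. For *Ldb1* (ENSMUSG00000025223.15, GRCm38 chr19:46031570-46045214, minus strand) the log2 fold change was -0.01 with an interval from -0.20 to 0.18. *Gata2* itself had 546 ± 22.2 CPM in CMPs and 490 ± 28.7 CPM in LSK cells, and its log2 fold change of 0.16 did not pass the test (edgeR adjusted p = 0.227).

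The same 3 genes were called in the same directions in cells with a *Spehd* shRNA, where CMP and LSK libraries share no control with those above. With sh10, 3 of the 7 genes were called where the comparison called 16.1% of genes, and with sh20 3 were called where it called 14.6%. The *Tal1* log2 fold change was 0.86 (SE 0.13) with sh10 and 1.25 (SE 0.14) with sh20. That of *Lyl1* was -1.21 (SE 0.22) and -0.96 (SE 0.26), and that of *Erg* was -1.82 (SE 0.35) and -1.32 (SE 0.39), with an edgeR adjusted p of at most 0.033 in all of these. Across all 3 shRNAs, *Tal1* ran from 81.7 to 119 CPM in the 9 CMP libraries and from 41.9 to 60.7 CPM in the 10 LSK libraries. *Erg* ran from 8.10 to 24.1 CPM in CMPs and from 37.8 to 67.2 CPM in LSK cells, so neither gene overlapped between the cell types. The *Erg* value with sh20 rests on CMP libraries at 24.1 and 8.60 CPM, so that it was -2.23 without the CMP sh20 library B and -0.76, with an edgeR adjusted p of 0.211, without library C. In both cases 1 sh20 library is left in CMPs, and the fit takes its spread from the other groups. Without either LSK sh20 library B or C its adjusted p was 0.0676 or 0.0629, and the *Lyl1* call with sh20 was likewise lost without CMP sh20 B, CMP sh20 C or LSK sh20 C (edgeR adjusted p = 0.0871, 0.0635 and 0.0574). Without the LSK sh10 library B that stood apart, the sh10 values were 0.90 for *Tal1*, -1.01 for *Lyl1* and -1.80 for *Erg*, and all 3 were called.

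**Figure D2:**
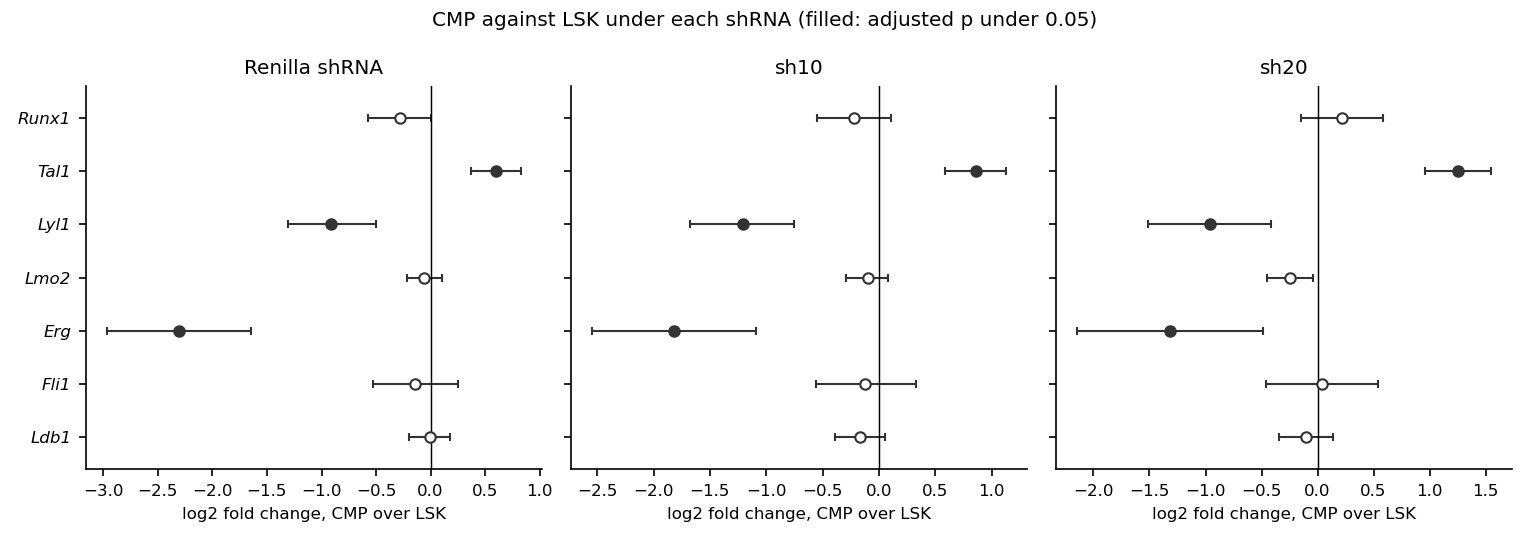
Log2 fold change of CMP over LSK for each gene under *Renilla* shRNA, sh10 and sh20, from edgeR. Points are estimates, whiskers are 95% intervals and filled points have an adjusted p under 0.05. *Tal1* is to the right of 0 and *Lyl1* and *Erg* to its left in all 3 panels.

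For each of these 3 genes 1 start is shown, because the genes differed between the cell types in both directions. The windows run from 250 bases before to 50 bases after a RefSeq start on GRCm38, 5′ to 3′ on the strand of the gene. Capitals mark a GATA word (AGATAA or TGATAA), an E-box (CANNTG) or an ETS word (AGGAAG or CGGAAG) on either strand. RUNX words (TGTGGT or TGCGGT) were searched too and none is in these windows. No marked words overlap.
Tal1, chr4:115056176-115056475, plus strand: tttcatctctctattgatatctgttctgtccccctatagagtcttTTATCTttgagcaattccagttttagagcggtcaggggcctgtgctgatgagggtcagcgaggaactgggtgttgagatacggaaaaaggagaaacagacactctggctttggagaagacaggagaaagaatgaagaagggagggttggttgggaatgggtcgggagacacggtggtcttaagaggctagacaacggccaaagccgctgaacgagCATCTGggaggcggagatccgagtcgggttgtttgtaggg
Lyl1, chr8:84701207-84701506, plus strand: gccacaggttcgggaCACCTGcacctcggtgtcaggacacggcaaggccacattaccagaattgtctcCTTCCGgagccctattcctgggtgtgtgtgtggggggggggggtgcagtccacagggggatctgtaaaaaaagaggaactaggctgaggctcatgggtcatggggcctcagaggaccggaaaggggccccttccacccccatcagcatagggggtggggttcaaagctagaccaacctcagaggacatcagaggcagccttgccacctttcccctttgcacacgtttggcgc
Erg, chr16:95459299-95459598, minus strand: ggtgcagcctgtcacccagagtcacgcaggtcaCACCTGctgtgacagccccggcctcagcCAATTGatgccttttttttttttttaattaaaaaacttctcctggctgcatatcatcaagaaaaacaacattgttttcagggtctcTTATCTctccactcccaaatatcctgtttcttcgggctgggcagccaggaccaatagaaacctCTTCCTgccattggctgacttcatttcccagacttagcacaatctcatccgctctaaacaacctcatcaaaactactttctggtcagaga

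The *Tal1* window held 1 GATA word and 1 E-box. The *Lyl1* window held 1 E-box and 1 ETS word, and the *Erg* window, the third of its 3 starts, held 1 GATA word, 2 E-boxes and 1 ETS word. The table has 2 starts of *Tal1* and 3 of *Erg*, and 1 of each held any of the words, the one shown. Among the 7 genes, 5 matched the table by symbol, with 11 windows in all. Of these 11, 3 held a GATA word, 5 an E-box, 5 an ETS word and 1 a RUNX word, where the shares over all 32851 windows were 18.6%, 72.3%, 46.5% and 22.4%. A word in a window describes its letters and is no evidence of binding.

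The pairs of relatives are also given as ratios within each library. The ratio of *Tal1* to *Lyl1* counts, which needs no scaling between libraries, was 1.0, 1.14, 1.64 and 1.26 in LSK *Renilla* libraries A to D and 3.43, 3.03, 4.0 and 3.54 in the CMP *Renilla* libraries. With sh20 it was 2.13, 2.38 and 1.85 in LSK cells and 11 and 8.69 in CMPs, above all libraries with *Renilla* shRNA or sh10 of the same cell type. With sh10 it was 1.35, 0.910 and 1.11 in LSK cells and 4.75, 4.98 and 4.11 in CMPs. The ratio of *Fli1* to *Erg* counts was between 2.22 and 6.63 in LSK cells and between 6.99 and 34.5 in CMPs, without overlap between the cell types.

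**Figure D3:**
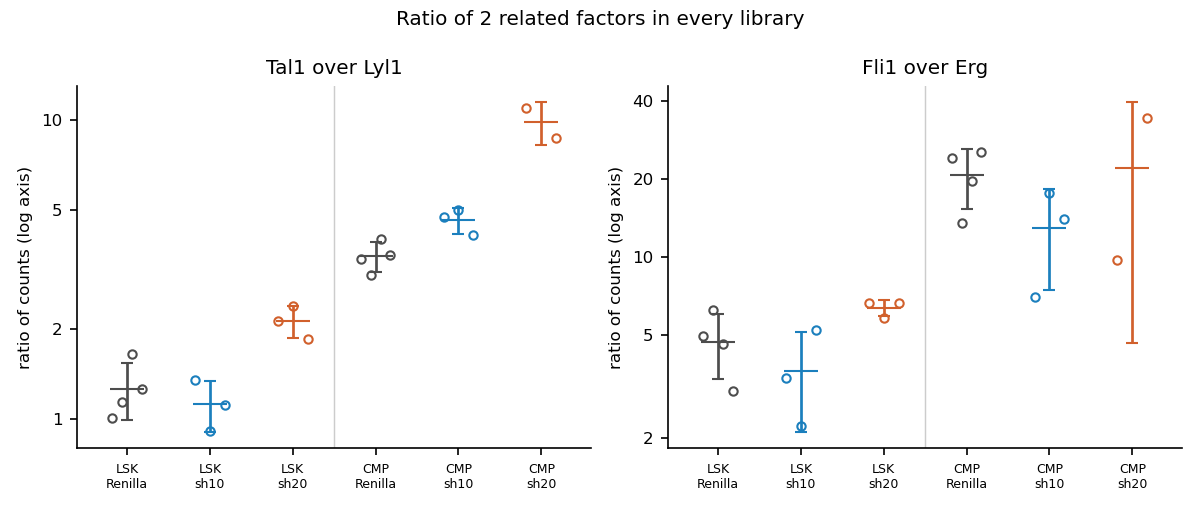
Ratio of *Tal1* to *Lyl1* counts and of *Fli1* to *Erg* counts in every library, on log axes. Circles are libraries and bars with whiskers are the mean and SD. Both ratios are higher in CMPs than in LSK cells, and the *Tal1* to *Lyl1* ratio is highest with sh20 in each cell type, at a mean of 9.83 in CMPs and 2.12 in LSK cells.

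Genes of proteins that work with the 7 partners were called in both directions between the cell types, and most of them were not called. Of 27 cofactors, 4 were higher and 3 lower in CMPs with *Renilla* shRNA, where 19.8% of all genes were called, with a median log2 fold change of 0.00 beside -0.02 over all genes tested. *Gfi1b*, a transcriptional repressor that acts in the erythroid and megakaryocyte lineages, was higher by 1.16 (SE 0.14), and *Zfpm1*, the GATA cofactor FOG1, by 0.63 (SE 0.13). *Ssbp3*, which protects *Ldb1* from degradation, was higher by 0.58 (SE 0.16). *Gfi1*, the relative of *Gfi1b* in stem cells and granulocytes, was lower by a log2 fold change of -2.35 (SE 0.34), and the acetyltransferase *Crebbp* by -0.83 (SE 0.19). With sh10 6 cofactors were higher and 1 lower (16.1% of all genes called), and with sh20 1 was higher and 3 lower (14.6%), among them *Gfi1b* (1.33 and 0.62) and *Gfi1* (-2.54 and -3.62) both times.

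Of 7 inhibitors, which keep E-proteins or LIM factors out of the complexes, 5 were tested. *Id3* (2.61, SE 0.71) and *Id2* (0.69, SE 0.22) were higher in control CMPs and *Lmo4* (-1.19, SE 0.26), which competes for *Ldb1*, was lower. With sh10 0 inhibitors were higher and 1, *Lmo4* (-0.99, SE 0.30), was lower, and *Id3* and *Id2* were at -0.28 and -0.49. With sh20 1, *Id3* (3.34, SE 0.89), was higher and 1, *Id1*, was lower, and *Id2* was at 0.14. Of 23 relatives of the partners, 19 were tested, 1 was higher and 7 were lower, with a median of -0.48, beside the 19.8% of all genes called. The 1 that was higher was *Gata1* (2.07, SE 0.17), which takes the place of *Gata2* in erythroid cells. *Runx2* (-1.41, SE 0.19) and the ETS factors *Elf2* (-1.0, SE 0.20) and *Elk3* (-0.86, SE 0.22) were the furthest down. With sh10 1 relative was higher and 4 lower, and with sh20 2 were higher and 7 lower, where 16.1% and 14.6% of all genes were called.

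Of 25 genes known as targets of the partners in blood cells, 10 were higher and 7 lower in control CMPs, with a median of -0.01, where 19.8% of all genes were called. Erythroid targets were among those that rose the most, with *Klf1*, the erythroid regulator, at 3.03 (SE 0.30) and *Epor*, the erythropoietin receptor, at 2.56 (SE 0.23). *Mecom* (-1.89, SE 0.50), a regulator of stem cells, *Cebpa* (-1.50, SE 0.32), a myeloid regulator, and *Cpa3* (-0.71, SE 0.24), a mast cell protease, led those that fell. With sh10 7 targets were higher and 6 lower, and with sh20 8 were higher and 5 lower, where 16.1% and 14.6% of all genes were called. *Gata1*, *Gfi1b*, *Zfpm1* and *Spi1* stand in this list and in one above, and the erythroid genes here are also among the erythroid markers whose sum separated the cell types.

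The second question was whether the partners changed when *Spehd* was knocked down. With both shRNAs as 1 group, none of the 7 genes was called in CMPs (edgeR), in a comparison that called 0.116% of 12912 genes, while 3 had an unadjusted p under 0.05, as had 2149 of the 12912 genes. DESeq2 called 1 of the 7, *Lmo2*, where it called 9.74% of 9054 genes. The number of genes called by edgeR in this comparison was 15, and it ran from 0 to 264 without 1 library, was 328 with upper quartile normalization and 674 with sh10 and sh20 as separate groups. In LSK cells none of the 7 was called and 0% of 13441 genes were, with 1 of the 7 and 492 of all genes at an unadjusted p under 0.05, and DESeq2 called 0 of the 7 and 0% of genes. In CMPs the log2 fold changes were 0.15 for *Runx1*, 0.20 for *Tal1*, -0.59 for *Lyl1*, 0.63 for *Erg*, 0.05 for *Fli1* and -0.18 for *Ldb1*. In LSK cells all 7 were at or below -0.03, with *Lyl1* (-0.45), *Tal1* (-0.25), *Lmo2* (-0.19), *Runx1* (-0.12), *Erg* (-0.10), *Ldb1* (-0.06) and *Fli1* (-0.03), beside a median over all genes of 0.00. *Gata2* had a log2 fold change of -0.26 in CMPs that edgeR did not call (adjusted p = 0.0895). It was called by DESeq2 (adjusted p = 0.0151), with upper quartile normalization (edgeR adjusted p = 0.0433) and with sh10 and sh20 as separate groups (edgeR adjusted p = 0.0378), and over all alternatives its adjusted p ran from 0.0151 to 0.990.

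Of the 7 genes, *Lmo2* had the smallest p in CMPs. It had 341, 351, 343 and 335 CPM with *Renilla* shRNA, 293, 282 and 299 CPM with sh10, and 268 and 264 CPM with sh20. The 3 shRNAs did not overlap and each *Spehd* shRNA lay below the control. Before scaling, the mean count of *Lmo2* did not fall, at 1394 with *Renilla* shRNA, 1409 with sh10 and 1544 with sh20. Total counts rose in the same order, so the lower CPM is a level relative to the total. For both shRNAs together the log2 fold change was -0.28 (SE 0.05), with an edgeR adjusted p of 0.0667, and 0.0401 without the CMP sh20 library B.

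Each shRNA on its own was then set against *Renilla* shRNA. In CMPs with sh10, 1 of the 7 genes was called where the comparison called 1.97% of genes, or 272, a number that ran from 9 (without CMP sh10 B or C) to 1020 (without CMP sh20 C). This was *Lmo2*, lower by a log2 fold change of -0.24 (SE 0.05, edgeR adjusted p = 0.0376). The call was lost without any 1 of the CMP sh10 or CMP *Renilla* libraries, with edgeR adjusted p between 0.0579 and 0.178, and also without a filter on low counts (0.134) and in 1 fit of all 19 libraries (0.202). In CMPs with sh20, 2 of the 7 were called where the comparison called 6.17% of genes, or 853, which ran from 430 (without CMP *Renilla* B or D) to 3191 (without CMP sh20 C). These were *Lmo2*, at -0.35 (SE 0.05, edgeR adjusted p = 0.0093), and *Lyl1*, at -1.18 (SE 0.23, edgeR adjusted p = 0.0219). With the letters of the libraries as a block, both calls were lost (edgeR adjusted p = 0.0905 and 0.155), where 0 of 13824 genes were called. The sh10 call of *Lmo2* was lost with the block too, where 5 of 13824 genes were called. The *Lyl1* call was lost without CMP *Renilla* library B (edgeR adjusted p = 0.0539) and without a filter on low counts (0.0619), and *Tal1*, at 0.33 (SE 0.12), was not called. Without CMP sh20 library B *Tal1* was at 0.13, and without CMP sh20 library C it was at 0.50 and was called. Each of these leaves 1 sh20 library in CMPs, which the fit takes to vary like the other groups.

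Of the 7 genes, *Lyl1* had the widest gap between the shRNAs in both cell types. In CMPs it had 10.8 and 10.7 CPM with sh20, 20.6, 17.9 and 21.9 CPM with sh10, and 25.8, 28.3, 20.4 and 24.3 CPM with *Renilla* shRNA. In LSK cells it had 19.9, 20.6 and 22.6 CPM with sh20, 36.1, 57.4 and 46.8 CPM with sh10, and 60.0, 43.4, 33.6 and 48.2 CPM with *Renilla* shRNA. All sh20 libraries lay below all others of their cell type, and the sh10 and *Renilla* libraries overlapped. The sh20 libraries were also those with the fewest genes detected at 1 count or more, 17174 and 18066 in CMPs where the others had 18552 to 20275, and 17587 to 17817 in LSK cells where the others had 19026 to 20678. The part of this measure in the *Lyl1* values was not tested. In the order of the 6 mean levels, LSK sh10 (46.8 ± 10.6 CPM, SD, n = 3) and LSK *Renilla* (46.3 ± 11, n = 4) did not differ beyond their spread, nor did CMP *Renilla* (24.7 ± 3.29, n = 4), LSK sh20 (21.1 ± 1.39, n = 3) and CMP sh10 (20.1 ± 2.07, n = 3). CMP sh20 was the lowest (10.8 ± 0.0943, n = 2), with 62.5 counts a library on average.

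In LSK cells the sh20 log2 fold change of *Lyl1* was -1.16 (SE 0.24), close in size to that in CMPs, with an unadjusted p of 5.53e-04 and an edgeR adjusted p of 0.181. None of the 7 genes was called there, as 0% of 13828 genes were with sh20 and 0% with sh10. With sh20, 2 of the 7 and 1152 of all genes had an unadjusted p under 0.05, and DESeq2 called 1, *Lyl1* (DESeq2 adjusted p = 0.00262), where it called 1.16% of 16837 genes. With sh10, 0 of the 7 and 457 of all genes had an unadjusted p under 0.05, and DESeq2 called 0 of them and 0.00986% of genes. With sh10 *Lyl1* was at 0.03 (SE 0.23) in LSK cells and -0.30 (SE 0.19) in CMPs. Set against each other, sh20 was below sh10 for *Lyl1* by a log2 fold change of -0.88 (SE 0.24, edgeR adjusted p = 0.0566) in CMPs and -1.19 (SE 0.25, edgeR adjusted p = 0.151) in LSK cells. None of the 7 was called between the shRNAs by edgeR, where 6.41% of genes were called in CMPs and 0% in LSK cells. At an unadjusted p under 0.05 there were 2 in CMPs (3668 of all genes) and 1 in LSK cells (1268 of all genes), and DESeq2 called 2, *Lyl1* and *Fli1*, in CMPs and 1, *Lyl1*, in LSK cells (adjusted p = 0.0198 and 0.00412 for *Lyl1*), where it called 13.3% and 1.47% of genes. The edgeR calls between the shRNAs in CMPs, 886 genes, ran from 84 (without CMP sh10 B) to 3484 (without CMP sh20 C).

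**Figure D4:**
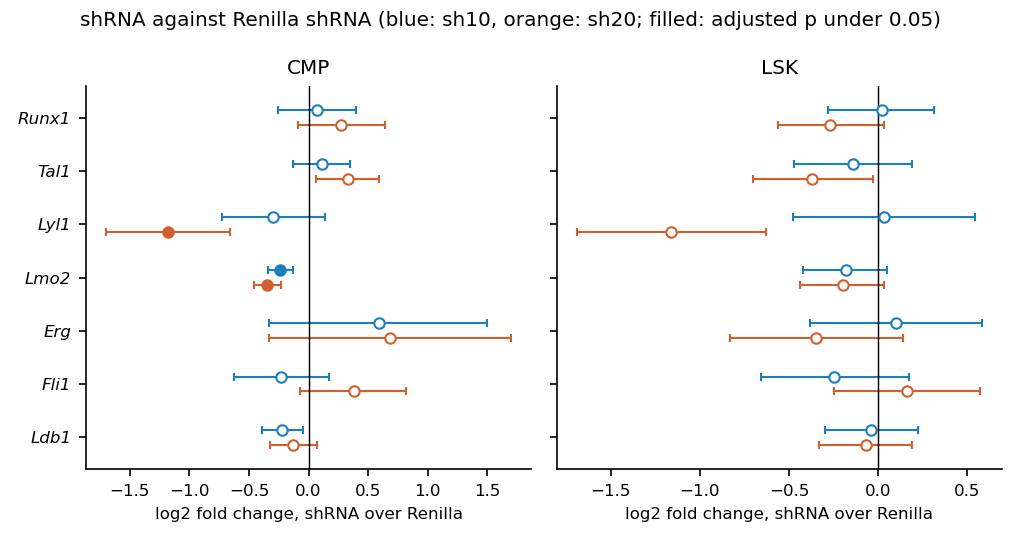
Log2 fold change of each gene with sh10 (blue) or sh20 (orange) over *Renilla* shRNA, in CMPs and in LSK cells, from edgeR. Whiskers are 95% intervals and filled points have an adjusted p under 0.05. *Lyl1* with sh20 lies near -1.2 in both panels, and *Lmo2* is filled for both shRNAs in CMPs.

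The guide strands are shown because *Lyl1* libraries with sh10 and sh20 did not overlap. They run 5′ to 3′ in DNA letters as designed, with the seed (bases 2 to 8) in capitals.
sh10: tACAAAGTcagcttttcctctc
sh20: tATGCTATgacaacccagggca

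The match of the sh20 seed, ATAGCAT, was in the longest annotated transcript of 0 of the 7 genes, *Lyl1* included, and of 12.1% of 21877 protein-coding genes. That of sh10, ACTTTGT, was found once each in *Erg*, *Fli1* and *Ldb1*, and in 26.5% of protein-coding genes. No other effect of the guides was tested.

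*Fli1* lay the other way. With sh20 it had 235 and 297 CPM in CMPs and 257, 250 and 270 CPM in LSK cells. With sh10 it had 151, 164 and 216 CPM in CMPs and 223, 120 and 233 CPM in LSK cells. All sh20 libraries lay above all sh10 libraries of the same cell type, and the *Renilla* libraries (152 to 252 CPM and 203 to 256 CPM) overlapped with both. Against sh10, sh20 was higher by 0.60 (SE 0.21, edgeR adjusted p = 0.105) in CMPs and 0.41 (SE 0.20, edgeR adjusted p = 0.588) in LSK cells. The value of 120 CPM belongs to the LSK sh10 library B that stood apart, and without it the difference in LSK cells was 0.15. For *Lyl1* the difference without that library was -1.01 (edgeR adjusted p = 0.139).

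The knockdown values move with several other measures. In CMPs total counts rose from *Renilla* to sh10 to sh20 without overlap. When log2 total counts entered the CMP fit as a covariate, sh20 gave -0.45 (SE 0.94) for *Lyl1* and -0.34 (SE 0.21) for *Lmo2*, and sh10 gave -0.23 (SE 0.13) for *Lmo2*, none of them called (edgeR adjusted p = 1, 1 and 0.989). This fit called 0 of 13824 genes for sh10 and for sh20, where 272 and 853 were called without the covariate. As totals separate the shRNAs of CMPs, it can hardly tell shRNA and total counts apart. With the covariate in 1 fit of all 19 libraries, a choice made after seeing the data, *Lyl1* with sh20 in CMPs was at -1.31 (SE 0.40, edgeR adjusted p = 0.288). There 20 of 15066 genes were called for sh20 in CMPs. In LSK cells, where totals overlapped, the sh20 value of *Lyl1* with that covariate was -1.22 (edgeR adjusted p = 0.35). Summed levels of 8 megakaryocyte markers in CMPs were 930 to 1856 CPM with *Renilla* shRNA, 763 to 1024 CPM with sh10 and 1586 to 1601 CPM with sh20. In LSK cells the same markers had 578 to 917 CPM with *Renilla* shRNA, 526.3 to 710 CPM with sh10 and 746 to 915 CPM with sh20, so that sh10 and sh20 did not overlap in either cell type, as for *Fli1*. In LSK cells sh20 also lay below sh10 without overlap for 7 lymphoid markers (77.9 to 137 CPM against 163 to 208.5 CPM) and for 7 markers of mature neutrophils and monocytes (3.65 to 11.4 CPM against 47.8 to 274 CPM), as for *Lyl1*. In CMPs 10 stem cell markers had 1047 to 1293 CPM with sh20. They had 1300 to 1456 CPM with sh10 and 1324 to 1478 CPM with *Renilla* shRNA. The 7 endothelial markers went the other way, with 164 to 199 CPM for sh20, 102 to 122 CPM for sh10 and 125 to 162 CPM for *Renilla* shRNA. Markers of myeloid progenitors had 681 to 842 CPM with sh10, above 580 to 613 CPM with sh20 and 467 to 651 CPM with *Renilla* shRNA. The part of these markers in the results was not tested.

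*Lmo2* varied with the total count among libraries of 1 cell type and shRNA. Across the 19 libraries, the deviation of its log2 CPM from the group mean had a Pearson's r of -0.87 with that of log2 total counts (permutation p within groups = 0.0135, adjusted p = 0.0944 over 7 genes) and a Spearman's rho of -0.76 (permutation p = 0.0123). Without the LSK *Renilla* library C and the LSK sh10 library B, the 2 whose deviation of total counts lay farthest from the median deviation, r was -0.67. It was -0.94 in LSK cells and -0.00 in CMPs, so the relation was that of the LSK libraries. In the fit of all 19 libraries with total counts as a covariate, *Lmo2* was at -0.03 with sh10 and -0.02 with sh20 in CMPs (edgeR adjusted p = 0.997 and 0.966). That fit puts 1 slope on total counts for both cell types, so these values apply to CMPs a relation seen in LSK libraries. The fit of CMP libraries alone with the covariate gave -0.23 and -0.34. The other 6 genes had r between -0.54 and 0.21, with adjusted p of at least 0.285.

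**Figure D5:**
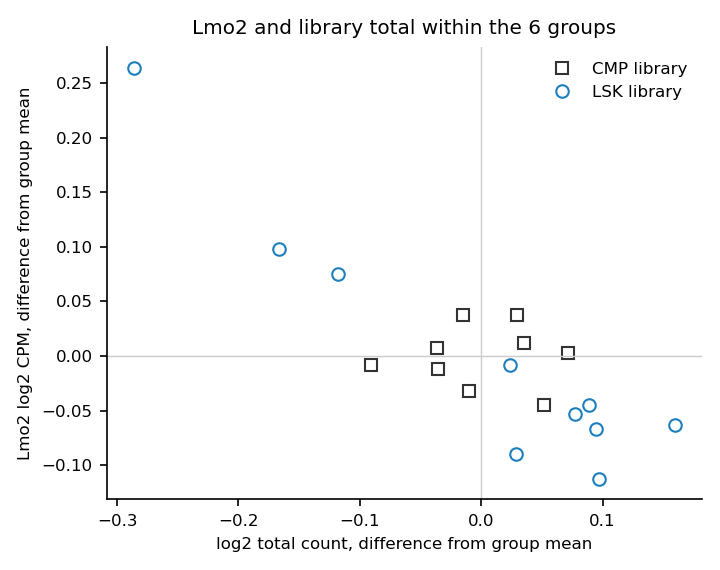
Deviation of *Lmo2* log2 CPM from the mean of its cell type and shRNA against the same deviation of log2 total counts, for 19 libraries. Squares are CMP and circles are LSK libraries. The LSK libraries fall from left to right (r = -0.94) and the CMP libraries do not (r = -0.00).

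Whether knockdown acted differently in CMPs and LSK cells was tested directly, in a comparison that called 0.0531% of 15066 genes. None of the 7 genes was called by edgeR, nor by DESeq2, which called 0.567% of genes, and 1 had an unadjusted p under 0.05 (edgeR), as had 1518 of all genes. This was *Tal1*, whose libraries with a *Spehd* shRNA lay above the CMP control mean in all 5 cases (89.0 to 119 CPM against 85.5 ± 2.81, SD, n = 4) and below the LSK control mean in all 6 (41.9 to 52.2 CPM against 56.4 ± 5.27). The difference of the 2 log2 fold changes was 0.46 (SE 0.15, unadjusted p = 0.00597, edgeR adjusted p = 0.343). For *Lyl1* it was -0.18 with a 95% interval from -0.72 to 0.35.

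The genes around the partners were followed under knockdown too. With both shRNAs as 1 group in CMPs, 0 of 26 cofactors tested, 0 of 3 inhibitors, 1 of 19 relatives and 1 of 25 targets were called by edgeR, beside 0.116% of all genes. The relative called in CMPs was the ETS factor *Elf2*, higher by 1.10 (SE 0.15), and the target called was *Nfe2*, a regulator of platelet formation, with a log2 fold change of -0.31 (SE 0.05). In LSK cells the same test called none of the 4 lists, where 3 cofactors, 0 inhibitors, 1 relative and 3 targets had an unadjusted p under 0.05, beside 492 of all 13441 genes. With sh10 in CMPs, where 1.97% of all genes were called, 1 cofactor was higher, 2 of 4 inhibitors were lower, 1 relative was higher and 1 lower, and 3 targets were lower. The ubiquitin ligase *Rlim*, which degrades LIM cofactors, was higher by 0.84 (SE 0.14), and *Elf2* by 1.20 (SE 0.15). The inhibitors *Id3* (-2.87, SE 0.60) and *Id2* (-1.20, SE 0.23) were lower, and so were *Gata3* (-1.04, SE 0.19), the platelet receptor subunit *Gp9* (-1.22, SE 0.23) and *Nfe2* (-0.29, SE 0.05). With sh20 in CMPs, where 6.17% of all genes were called, 1 cofactor was lower, 0 of 4 inhibitors were called, 1 relative was higher, and 1 target was higher and 3 were lower. The corepressor *Cbfa2t2* (-1.28, SE 0.18) and the targets *Cd34* (-0.85, SE 0.13), *Klf1* (-0.39, SE 0.09) and *Nfe2* (-0.33, SE 0.06) were lower, and the relative *Elf2* (0.94, SE 0.16) was higher.

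Between the shRNAs in CMPs, 5 of 27 cofactors were lower with sh20 than with sh10 and none higher, where 6.41% of all genes were called. *Cbfa2t2* (-1.52, SE 0.18), the corepressor subunit *Sin3a* (-0.70, SE 0.18) and the E-protein *Tcf4* (-0.68, SE 0.17), a pairing partner of *Lyl1* and *Tal1*, were the furthest down. Among the inhibitors, *Id3* (2.90, SE 0.65) and *Id2* (1.07, SE 0.26) were higher with sh20. Of the relatives, the ETS factor *Spib* (4.35, SE 0.79) was higher and the ETS factor *Elf4* (-0.90, SE 0.21) was lower. Of the targets 2 were higher and 1 lower, among them *Gp9* (1.73, SE 0.26) and *Cd34* (-0.80, SE 0.14). In LSK cells edgeR called none of the 4 lists between the shRNAs, where 2 cofactors, 0 inhibitors, 3 relatives and 4 targets had an unadjusted p under 0.05, beside 1268 of all 13828 genes.

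Over the 19 libraries, deviations from the group mean were also correlated between the 7 genes. Among the 21 pairs, none had an adjusted p under 0.05, and the highest r was that of *Runx1* and *Fli1* (r = 0.66, Spearman's rho = 0.50, permutation p = 0.031 and 0.0894, adjusted p = 0.325 over 21 pairs). The smallest p was that of *Tal1* and *Fli1*, which went in opposite directions (r = -0.41, Spearman's rho = -0.51, permutation p = 0.0301 and 0.0268, adjusted p = 0.325). Without the 2 libraries farthest from the median of *Runx1* or *Tal1*, r was 0.57 and -0.41. Among the 10477 genes that averaged 50 counts or more, the gene whose log2 CPM was most like *Tal1* was *Sept8* (r = 0.96), followed by *Stard10* and *St3gal5* (both 0.94). For *Lyl1* these were *Mdga1* (0.93), *Spsb4* (0.91) and *Sox4* (0.89), and for *Erg* *Plcb2* (0.95), *Myo1f* (0.92) and *Hk3* (0.92). For *Lmo2* they were *Laptm5* (0.95), *Adgrg1* (0.94) and *Psmb8* (0.94), and for *Fli1* *Pla2g4a* (0.91), *Zfp959* (0.87) and *Tek* (0.87). For *Runx1* *Trp53inp1* (0.76) and for *Ldb1* *BC005624* (0.78) came first. Libraries share their cell type and depth, so these values describe likeness over 19 libraries and carry no test, and within groups the r of *Sept8* with *Tal1* was 0.25 and that of *Psmb8* with *Lmo2* was 0.95.

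Some annotated genes overlap the partners. The methods of the study name HTSeq with default settings, which count by strand, and a kit that is not stated to keep the strand, so reads of genes that overlap on opposite strands may not be told apart. *Pprc1*, on the other strand, shares 177 exonic bases with *Ldb1* and had 752 to 2013 counts. The antisense gene *Gm26626* shares 106 exonic bases with *Runx1* and had 20 to 50 counts, and *Nfix* shares 4 with *Lyl1* and had 427 to 1023 counts. The genes that overlap *Fli1* and *Lmo2* had at most 31 counts each and share no exonic base with them.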

How the data were processed

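RNA of zsGreen+ CMP and LSK cells was sequenced in 19 libraries. STAR alignment to mm10 and duplicate removal with Picard were done by the authors, who deposited, for each library, whole counts of reads per GENCODE gene from HTSeq. The deposited table of normalized counts was not used here. Reads on no gene, 51.9% to 53.8% of those assigned to a gene, to none or to several, stayed out of totals. Groups came from the labels. Counts were tested with edgeR 4.0.16 (R 4.3.3) by its quasi-likelihood test with TMM normalization, on genes kept by filterByExpr (10 counts, and 15 in all, as its minima). Benjamini-Hochberg adjustment was over all genes tested, at 0.05. CMP and LSK were compared in 1 fit of all 19 libraries, and knockdown was tested within each cell type. Intervals are at 95%. Log2 CPM used a prior count of 2. Correlations used 100000 permutations within groups. Coordinates, exons and lengths came from GENCODE vM21 on GRCm38, the build of mm10, matched by symbol for 53663 of 54352 genes, and promoter windows from RefSeq on GRCm38. Genes named beside the 7 are the 3 with the largest change in each direction, list and comparison, genes that overlap a partner and the genes most like each, apart from some that are not reported here. The genes, lists, tests and rules were chosen with earlier results of these data known. Alternatives were DESeq2 1.42.0, other normalizations and filters, a replicate block, total counts as a covariate, other sets of libraries and leaving out each library. The tests were checked on simulated data.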

Additional observations from a re-analysis of the deposited data

Results flagged for a closer look

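The LSK *Renilla* library C stood apart from the other 3 of its group for *Lmo2*, with a log2 CPM of 8.74 where libraries A, B and D had 8.36, 8.41 and 8.39. Its *Lmo2* count of 1567 was close to the 1558, 1696 and 1549 counts of those libraries, while its total of 3647318 counts was the lowest of all 19. Chance marks about 1 in 20 groups in this way, and 16 combinations of gene and group were examined.

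For *Tal1*, all libraries with a *Spehd* shRNA lay above the control mean in CMPs and below it in LSK cells. The difference of the knockdown effects was 0.46 on the log2 scale, with an edgeR adjusted p of 0.343.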

How the results depend on the processing

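The 3 calls between CMPs and LSK cells stayed at 3 for *Renilla* shRNA and sh10 without any 1 library. When only the libraries compared were fitted, the count was 4 for *Renilla* shRNA, with *Runx1* added, and 1 for sh20. For sh20 it was also 2 without a filter and with total counts as a covariate, and ran from 1 to 4 without 1 library. With both shRNAs against *Renilla* in CMPs, the count of 0 became 1 with upper quartile normalization, 1 with DESeq2, 2 with sh10 and sh20 as separate groups and 2 in 1 fit of all 19 libraries, and ran from 0 to 1 without 1 library. In the same order, these fits called 328 of 12912, 882 of 9054, 674 of 13824 and 364 of 15066 genes. For sh10 in CMPs the count of 1 became 0 without a filter, with total counts as a covariate, in 1 fit of all 19 libraries and in that fit with the covariate, and ran from 0 to 1 without 1 library. Of all genes, 797 of 29978, 0 of 13824, 145 of 15066 and 1 of 15066 were called in these fits, in that order. For sh20 in CMPs the count of 2 became 1 without a filter and 0 with the covariate in either fit, and ran from 1 to 3 without 1 library. Of all genes, 1212 of 29978 were called without a filter. With the covariate these were 0 of 13824 in the CMP fit and 20 of 15066 in the fit of all 19 libraries. Between the shRNAs the count of 0 became 1 without a filter and 2 with DESeq2 in CMPs, and in LSK cells 1 without a filter, with DESeq2 or in the fit of all 19 libraries. The genes called were 1485 of 29978 and 1982 of 14860 in CMPs, and 113 of 30480, 256 of 17428 and 28 of 15066 in LSK cells. For sh20 in LSK cells the count of 0 became 1 without a filter and with DESeq2, where 73 of 30480 and 195 of 16837 genes were called. The cause was not tested.

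With the letters as a replicate block, the count was 0 for sh10 (*Lmo2* edgeR adjusted p = 0.163) and 0 for sh20 (*Lmo2* 0.0905 and *Lyl1* 0.155) in CMPs, and 2 for CMPs against LSK cells with sh20. Of all 13824 genes tested in CMPs, the block left 5 called with sh10 and 0 with sh20. The letters are not stated to pair libraries. In the 9 pairs of CMP and LSK libraries with the same letter and shRNA, the correlation of deviations over 10484 genes ran from 0.004 to 0.259, and 12 of 18 libraries matched best with their own letter. *Erg* under knockdown in LSK cells was at 0.06 with the block.

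Signs turned for some values that were not called. With both shRNAs in CMPs, *Fli1* was at -0.01 with upper quartile normalization, and with the covariate *Runx1* was at -0.03, *Tal1* at -0.09, *Lyl1* at 0.65 and *Fli1* at -0.73. In the fit of all 19 libraries with the covariate, *Fli1* was at -0.09 and *Ldb1* at 0.02. *Lyl1* with sh10 in CMPs was at 0.13 with the covariate. In LSK cells with the covariate, *Ldb1* was at 0.05 under knockdown (0.06 with all 19 libraries), and with sh10 *Lyl1* was at -0.05 (-0.03 with all 19 libraries) and *Lmo2* at 0.02. Without 1 library, *Fli1* under knockdown ran from -0.11 to 0.16 in CMPs and from -0.09 to 0.10 in LSK cells, *Erg* in LSK cells from -0.25 to 0.04, and *Lyl1* with sh10 in LSK cells from -0.17 to 0.19. Between control CMPs and LSK cells, *Ldb1* ran from -0.07 to 0.04 and *Lmo2* from -0.10 to 0.02. In all, 38 of 51 single values kept their sign in every alternative.

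Over all alternatives, adjusted p ran from 0.00262 to 0.691 for *Lyl1* with sh20 in LSK cells, from 5.67e-04 to 1 for *Lyl1* and from 3.54e-05 to 1 for *Lmo2* with sh20 in CMPs, and from 0.00285 to 0.997 for *Lmo2* with sh10 in CMPs. Depth limits *Erg* and *Lyl1* in CMPs most, with group means of 42.0 and 62.5 counts at the lowest.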
